A study of Rattus norvegicus with 4 samples.

Results

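The genes described here make cholesterol and turn it into brain steroids. They were the 38 genes, of the 17419 transcripts and genes listed in at least 1 of 4 libraries, whose symbol matched a fixed list of 23 sterol genes (18 enzymes of cholesterol synthesis and 5 genes that sense or carry sterols) and 15 steroid genes (5 for the entry and cleavage of cholesterol in mitochondria, 7 for steroid conversion and 3 for cholesterol and oxysterol turnover). Each of the 38 was listed once under its NCBI Gene ID, and 37 of them were listed in the female libraries, where Cyp11a1 was not. The libraries were made from poly(A) RNA of the frontal cortex (called prefrontal cortex in the study) of newborn rats, Wistar in the sample labels and Wistar Furth in the study's methods, with 1 library for each sex and each prenatal treatment. The BPA group was born to dams given 5000 µg of bisphenol A, a monomer of plastics that can bind estrogen receptors, per kg of body weight by oral gavage every day from gestation day 1 to birth, and the control group to dams given the vehicle, ethanol in corn oil. The sample labels give postnatal day 1 and the study's methods give days 1 to 2. Each sex and treatment was represented by 3 pups, with 6 litters in all, per the methods, and pooling within a library is not described, so the spread between libraries may be partly technical. The comparisons asked how the expression of these genes in the BPA libraries differed from that in the controls, over both sexes and within each sex.

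Brain cholesterol is made within the brain, because lipoprotein cholesterol hardly crosses the blood-brain barrier, and the newborn cortex needs it for growing membranes and, later, for myelin. Acetyl-CoA is built through mevalonate into isoprenoid units and squalene, squalene epoxide is closed to lanosterol, and lanosterol is trimmed in many steps to cholesterol. The transcription factor SREBP-2, held in the endoplasmic reticulum by Scap and Insig proteins while sterol is plentiful, is released when sterol falls and switches on nearly every enzyme of this route together with Insig1 itself. Neurosteroid synthesis starts when cholesterol enters mitochondria and its side chain is cleaved by Cyp11a1, with electrons from ferredoxin and its reductase, and continues through reductases, hydroxysteroid dehydrogenases and aromatase.

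Because SREBP-2 acts on promoters together with the factor NF-Y, the bases before the start of the sterol genes were searched for the letters of both sites. RefSeq promoter sequences (build GRCr8, not the rn6 build to which the reads were mapped) matched 29 of the 38 genes by Gene ID. The 5 sequences shown belong to the only gene that passed the test without a sex block (Insig1), to the pair with the next lowest adjusted p (Idi1 and Msmo1) and to a pair of enzymes with large differences (Hsd17b7 and Ebp). Each is 250 bases long and ends just before the annotated start, read 5′ to 3′ along the gene, with CCAAT, the NF-Y box, or its complement ATTGG in capitals. They lie at chr4:8057770-8058019 (Insig1, minus strand), chr17:66547525-66547774 (Idi1, minus), chr16:29746863-29747112 (Msmo1, plus), chr13:84722755-84723004 (Hsd17b7, minus) and chrX:16971212-16971461 (Ebp, plus).
Insig1: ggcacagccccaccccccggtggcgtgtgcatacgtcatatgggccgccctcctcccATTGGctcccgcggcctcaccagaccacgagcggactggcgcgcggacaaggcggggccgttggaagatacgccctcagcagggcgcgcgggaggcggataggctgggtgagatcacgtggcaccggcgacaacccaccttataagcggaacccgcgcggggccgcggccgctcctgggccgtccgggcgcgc
Idi1: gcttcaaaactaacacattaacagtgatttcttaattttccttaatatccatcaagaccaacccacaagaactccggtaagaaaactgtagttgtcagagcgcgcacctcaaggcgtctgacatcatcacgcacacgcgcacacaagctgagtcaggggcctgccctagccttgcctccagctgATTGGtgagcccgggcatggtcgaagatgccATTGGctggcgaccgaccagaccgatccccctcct
Msmo1: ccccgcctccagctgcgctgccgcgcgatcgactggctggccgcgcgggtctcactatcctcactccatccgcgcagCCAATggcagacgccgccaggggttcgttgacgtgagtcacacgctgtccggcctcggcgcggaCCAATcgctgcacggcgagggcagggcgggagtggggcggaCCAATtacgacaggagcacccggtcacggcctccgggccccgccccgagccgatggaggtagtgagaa
Hsd17b7: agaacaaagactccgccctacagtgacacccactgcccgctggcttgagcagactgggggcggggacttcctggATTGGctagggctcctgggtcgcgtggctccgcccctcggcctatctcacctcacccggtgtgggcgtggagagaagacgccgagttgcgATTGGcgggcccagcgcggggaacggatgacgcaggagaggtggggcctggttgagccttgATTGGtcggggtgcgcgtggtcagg
Ebp: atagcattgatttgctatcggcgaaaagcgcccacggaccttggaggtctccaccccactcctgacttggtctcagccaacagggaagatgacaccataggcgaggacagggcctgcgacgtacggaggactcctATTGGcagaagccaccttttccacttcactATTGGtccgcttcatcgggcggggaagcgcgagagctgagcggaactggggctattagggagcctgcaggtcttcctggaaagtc
The Insig1 sequence held 1 box, those of Idi1 and Ebp 2 each, and those of Msmo1 and Hsd17b7 3 each. Over the sterol genes, 15 of 19 promoters (78.9%) held CCAAT on either strand, as did 6 of 10 promoters (60%) of the steroid genes, beside 34.9% of the 11338 promoters of genes listed in the files and 34.3% of all 27457 promoters in the table. The sterol element letters TCACNCCAC, searched on both strands, were in none of the 29 promoters and in 1.03% of those of listed genes. The motifs can share a base where they adjoin, which did not occur in these promoters because the element letters were absent. A match of letters is no proof of binding, and no match covers this window and this spelling only.

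Levels are given in FPKM (fragments scaled to transcript length and library depth), a unit that can be compared between genes because it is divided by length. The depth recovered from the FPKM steps was 8936500 to 9268250 fragments per library, and median FPKM was lower in the BPA libraries (5.91 and 6.05) than in the controls (6.43 and 6.52). The Y-linked gene Eif2s3y was at 52.8 and 47.2 FPKM in the male libraries and 0.01 and 0.07 in the female ones, as the sex labels say, while Ddx3y, also Y-linked, was at 0.07 FPKM or less in all 4 libraries and did not separate the sexes. The study's methods state that meninges were removed, yet meningeal and fibroblast markers stood apart: their 11 genes summed to 486 FPKM in the control male against 221 in the BPA male, and to 636 in the control female against 153 in the BPA female. In bulk tissue, fewer cells of a type and less RNA per cell cannot be told apart.

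Transcripts of the cholesterol synthesis route were lower in both BPA libraries than in both controls for nearly every enzyme, and the sterol sensor Insig1 passed the test across all genes. Insig1 fell by 37.7% in the BPA male and fell by 42.7% in the BPA female against the control of the same sex. Summed over the 18 synthesis enzymes, expression went from 1393 FPKM in the control male to 1138 in the BPA male (-18.3%), and from 1384 in the control female to 1078 in the BPA female (-22.1%). The 15 steroid genes were closer to the controls in males, summing to 133 FPKM in the control and 120.4 in the BPA male, and to 141 and 114 in females. Most of each sum came from Hsd17b4, Hsd17b10 and Hsd17b12, which also have known roles outside steroids.

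The test was limma on log2(FPKM + 0.5) over the 13163 genes whose mean FPKM reached 1, with the male and female library as the 2 replicates of each treatment and Benjamini-Hochberg adjustment over all of them. It tested 34 of the 38 genes and called 1 of them, lower, at an adjusted p under 0.05, beside 0.562% of all genes called (0.456% lower). The libraries pair by sex, and with sex as a block 5 were called, all lower, beside 0.517% of all genes. These were Insig1, Msmo1 (adjusted p = 0.0343), Idi1 (0.0412), Hmgcs1 (0.0414) and Acat2 (0.0425). At an unadjusted p under 0.05, 18 of the 34 were lower and none higher, beside 12% of all genes lower. Both BPA values lay below both control values for 29 of the 34 and above them for 1, beside 31.9% and 18.7% of all genes. With libraries set to the same median these counts were 25 and 1, beside 22.9% and 28.6%. The median log2 difference was -0.30 over the 34 genes and -0.04 over all genes.

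**Figure D1:**
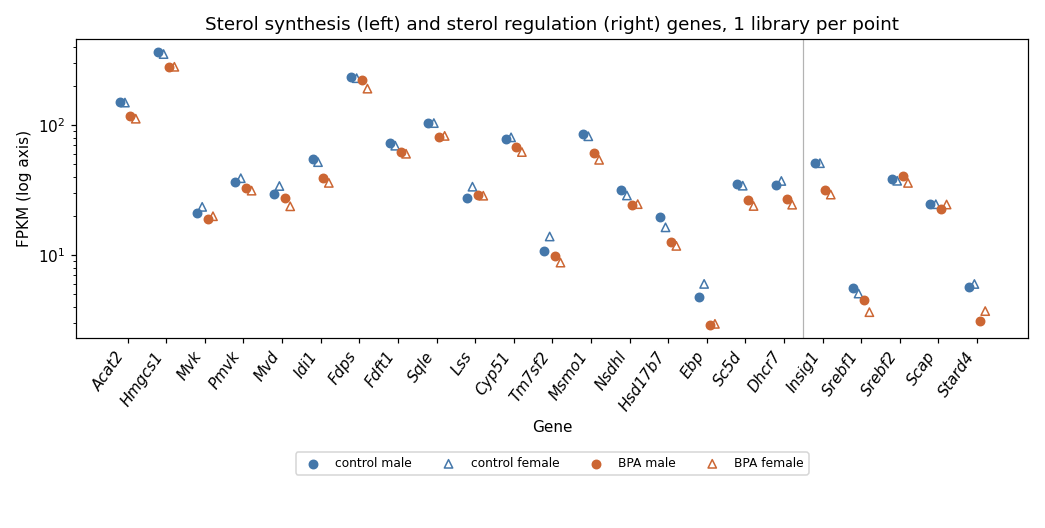
FPKM (log axis) of the 18 sterol synthesis genes in pathway order and the 5 sterol regulation genes, with 1 point per library, circles for males, triangles for females, blue for control and orange for BPA. Orange points lie below both blue points in 21 of the 23 genes, the exceptions being Lss and Srebf2.

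The early route, from acetyl-CoA to squalene epoxide, holds the most abundant of these transcripts. Hmgcs1, which joins acetoacetyl-CoA and acetyl-CoA to HMG-CoA, had the highest level, at 362 FPKM in the control male, 352 in the control female, 277 in the BPA male and 281 in the BPA female. Both BPA libraries lay below both controls, with a log2 difference of -0.35 (SE 0.0551, adjusted p = 0.0662, and 0.0414 with sex as a block). Acat2, the cytosolic thiolase that supplies acetoacetyl-CoA, was at 150.0 and 149 FPKM in the control male and female and at 117 and 112 in the BPA male and female. The female library differed from the male one by -0.01 on the log2 scale in controls and -0.07 in BPA, and the difference between treatments was -0.38 (SE 0.0559, adjusted p = 0.0560, and 0.0425 with sex as a block). Fdps, which makes farnesyl diphosphate for both sterols and protein prenylation, was the second most abundant at 234 and 229 FPKM in the controls, 221 in the BPA male and 191 in the BPA female. Its difference was mostly in females, with a log2 ratio of -0.08 in males and -0.27 in females, and the test gave an adjusted p of 0.320.

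Idi1, which isomerizes isopentenyl diphosphate so that isoprenoid units can be joined, had the largest difference of the early enzymes. It was at 54.7 FPKM in the control male and 51.8 in the control female against 38.9 in the BPA male and 35.9 in the BPA female. The ratio of BPA to control was 0.711 in males (95% counting interval 0.656 to 0.773) and 0.692 in females (0.636 to 0.756). Such intervals come from estimated fragments and cover counting error only. The log2 difference was -0.51 (SE 0.0706), and the adjusted p of 0.0509 was just above the threshold of 0.05 and was 0.0412 with sex as a block. Sqle, the squalene epoxidase and a slow step of the route, was at 104 FPKM in both controls, 80.7 in the BPA male and 82.5 in the BPA female, a difference of -0.35 (SE 0.0541, adjusted p = 0.0662).

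The 3 other early enzymes given by library showed smaller or less even differences. Pmvk, which phosphorylates phosphomevalonate, was at 36.7 and 39.0 FPKM in the control male and female and at 32.9 and 31.3 in the BPA male and female. Mvd, the mevalonate diphosphate decarboxylase, was at 29.5 and 33.95 FPKM in the control male and female and at 27.2 and 23.7 in the BPA male and female. The Mvd log2 ratio was -0.11 in males and -0.51 in females, and although its groups did not overlap, the controls differed from each other by more than the male pair did. Fdft1, the squalene synthase that commits farnesyl units to sterols, was nearly the same in the sexes, at 72.8 and 69.3 FPKM in the controls and 62.4 and 60.1 in the BPA libraries. Adjusted p for these 3 genes lay between 0.181 and 0.217, and the median log2 difference of the 9 early enzymes was -0.31.

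The late route, from the closing of squalene epoxide to lanosterol through to cholesterol, had a median log2 difference of -0.45 over 9 enzymes. Msmo1, the C4-methylsterol oxidase, had the lowest adjusted p among them. It was at 85.4 FPKM in the control male and 82.0 in the control female against 60.9 in the BPA male and 54.0 in the BPA female. The ratio was 0.713 in males (0.656 to 0.778) and 0.659 in females (0.603 to 0.722), with a log2 difference of -0.54 (SE 0.0754) and an adjusted p of 0.0509, or 0.0343 with sex as a block. Hsd17b7, which is named for its action on estrone but reduces 3-keto sterols in the same demethylation as Msmo1, was at 19.6 and 16.3 FPKM in the control male and female and at 12.6 and 11.8 in the BPA male and female. Its log2 difference was as large, -0.54, with a wider SE of 0.112 and an adjusted p of 0.111. Nsdhl, the decarboxylase of that demethylation, was at 31.7 and 28.7 FPKM in the controls and 24.4 and 24.6 in the BPA male and female, a difference of -0.30 (adjusted p = 0.156).

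The isomerase, desaturase and reductase that complete the sterol nucleus were lower in both sexes as well. Ebp, the sterol isomerase, was the scarcest sterol gene, at 4.71 FPKM in the control male, 5.99 in the control female, 2.91 in the BPA male and 2.95 in the BPA female. These levels rested on 39 to 80 fragments, so the ratio of 0.618 in males had a counting interval of 0.410 to 0.939 and the ratio of 0.493 in females one of 0.323 to 0.723. The log2 difference of -0.76 (SE 0.172) was the largest of the synthesis enzymes and its adjusted p was 0.129. Sc5d, which introduces the C5 double bond, was at 35.2 and 34.2 FPKM in the controls and at 26.6 in the BPA male and 23.8 in the BPA female. Dhcr7, which removes the double bond at C7 of 7-dehydrocholesterol, was at 34.8 and 37.1 FPKM in the control male and female and at 27.1 and 24.4 in the BPA male and female. The log2 differences were -0.45 for Sc5d (SE 0.0790, adjusted p = 0.0771) and -0.47 for Dhcr7 (SE 0.0812, adjusted p = 0.0761).

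The first steps after squalene epoxide were less even between the sexes. Cyp51, the lanosterol 14-demethylase, was at 78.6 and 80.4 FPKM in the controls, 68.1 in the BPA male and 62.0 in the BPA female, a log2 difference of -0.29 (SE 0.0673, adjusted p = 0.131). Tm7sf2, a C14 sterol reductase, was at 10.7 FPKM in the control male, 13.9 in the control female, 9.84 in the BPA male and 8.74 in the BPA female. The Tm7sf2 libraries did not overlap between treatments, but the control libraries differed by more than the male treatment pair, and the adjusted p was 0.260. Lss, the cyclase that makes lanosterol, was the only synthesis enzyme whose groups overlapped, with a log2 ratio of 0.08 in males and -0.23 in females (named after its values were seen). Mvk, the mevalonate kinase, did not overlap, at -0.15 in males and -0.23 in females, and is likewise named with its values known. Levels ran from 27.5 to 33.5 FPKM for Lss and from 18.9 to 23.5 for Mvk.

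Of the regulators, Insig1 passed the test, and it was the only one of the 38 genes to do so without a sex block. Insig1, which holds the Scap and SREBP complex in the endoplasmic reticulum and is itself a target of SREBP, was at 50.9 FPKM in both controls, 31.7 in the BPA male and 29.2 in the BPA female. The controls lay close together and both BPA libraries far below them. The ratio was 0.623 in males (0.566 to 0.686) and 0.573 in females (0.519 to 0.634), and the log2 difference was -0.73 (SE 0.0689, adjusted p = 0.0255). Over 14 alternative settings the log2 difference stayed between -0.79 and -0.67 and the adjusted p ran from 0.000467 to 0.168. The call held in 8 settings and was lost with no filter on low values, with no trend in the prior variance and without any 1 of the 4 libraries.

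Stard4, a soluble carrier that moves cholesterol between membranes, had a difference nearly as large on a low level. It was at 5.63 and 5.98 FPKM in the control male and female and at 3.12 and 3.70 in the BPA male and female, with ratios of 0.554 in males (0.450 to 0.682) and 0.619 in females (0.508 to 0.753). The log2 difference was -0.69 (SE 0.152, adjusted p = 0.123). Srebf1, which encodes the SREBP-1 factor of fatty acid synthesis, was at 5.59 and 5.05 FPKM in the controls and at 4.49 in the BPA male and 3.63 in the BPA female, with an adjusted p of 0.314. Srebf2, the gene of SREBP-2 itself, and Scap, its escort, had log2 differences of 0.02 (SE 0.0804) and -0.06 (SE 0.0739), and are named after their values were seen. Scap levels ran from 22.7 to 24.6 FPKM. Srebf2 levels were 38.1 and 37.3 FPKM in the controls and 40.8 and 35.9 in the BPA male and female, so the groups overlapped.

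**Figure D2:**
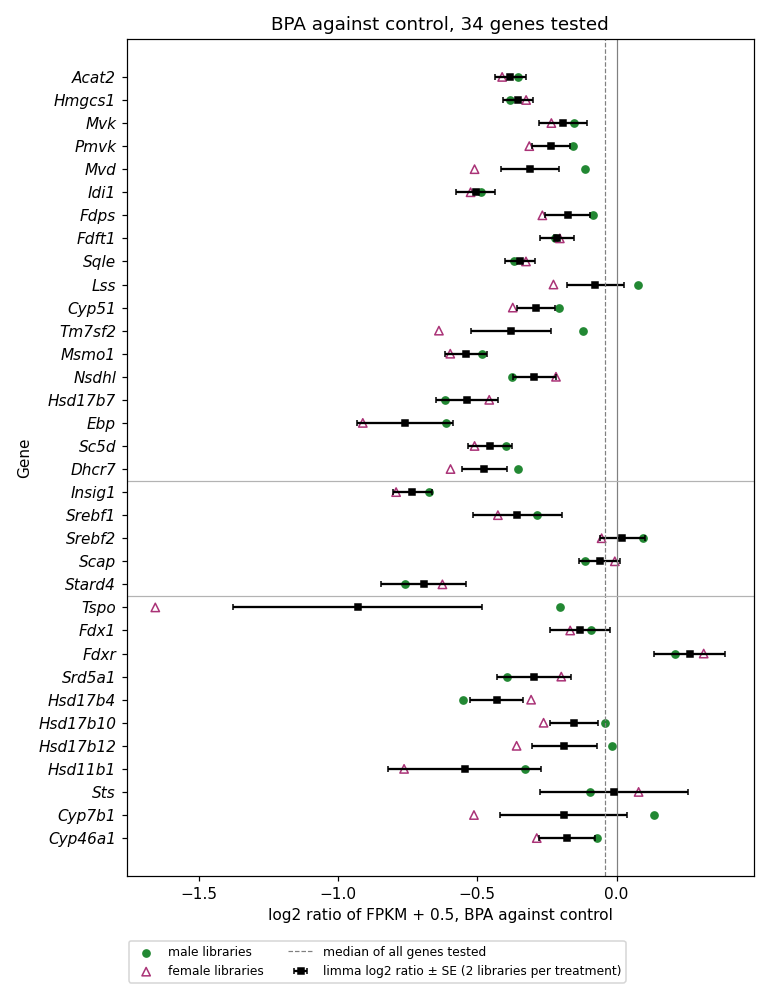
Log2 ratio of FPKM + 0.5, BPA against control, for the 34 genes tested, with the male pair as green circles, the female pair as open triangles and the limma difference as black squares with its SE (2 libraries per treatment). The dashed line is the median of all genes tested, -0.04. Lines across the plot part synthesis, regulation and steroid genes, and every synthesis enzyme but Lss lies left of 0 in both sexes.

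Of the steroid entry and cleavage genes, Cyp11a1, Star and Tspo were scarce, while the electron donors Fdx1 and Fdxr lay near the median of their libraries. Cyp11a1, which cleaves the cholesterol side chain to pregnenolone, was at 0.06 FPKM in the control male and 0.13 in the BPA male, which is 1 and 2 estimated fragments. Star, which brings cholesterol to the inner mitochondrial membrane, was listed at the floor of 0.01 FPKM in the control male, which allows up to 3 fragments or 0.296 FPKM, and at 0.20, 0.51 and 0.41 FPKM in the BPA male, control female and BPA female, or 2, 5 and 4 fragments. No difference in either gene could be detected at this depth, and neither was tested. Tspo, an outer-membrane protein long studied as a cholesterol transporter and abundant in glia and blood cells, was at 1.49 and 1.96 FPKM in the control male and female, 1.23 in the BPA male and 0.28 in the BPA female. The BPA female value was 2 fragments against 14 in its control, a ratio of 0.143 with a counting interval of 0.0157 to 0.621, and the adjusted p over both sexes was 0.341. On the log2(FPKM + 0.5) scale no other gene among the 34 tested reached an absolute ratio of 1 in a sex.

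Neither electron donor of the cleavage enzyme passed the test. Fdxr, the ferredoxin reductase, was the only one of the 34 genes higher in both BPA libraries, at 4.95 and 4.99 FPKM in the controls, 5.81 in the BPA male and 6.32 in the BPA female (named after its values were seen). Its counting intervals held 1 in both sexes, and the log2 difference of 0.26 (SE 0.127) had an adjusted p of 0.345. Fdx1, its ferredoxin partner, had a log2 difference of -0.13 (SE 0.108, adjusted p = 0.572). Both serve other mitochondrial cytochromes and iron-sulfur clusters too.

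Among the steroid conversion genes, Hsd17b4 had the largest difference relative to its error. It was at 27.4 FPKM in the control male, 27.2 in the control female, 18.5 in the BPA male and 21.9 in the BPA female. The ratio was 0.676 in males (0.597 to 0.765) and 0.805 in females (0.715 to 0.909), and the log2 difference was -0.43 (SE 0.0954, adjusted p = 0.124). Hsd17b4 oxidizes estradiol, but its main known role is in the peroxisomal breakdown of very long chain fatty acids and bile acid precursors. The other abundant members of this list also have known roles outside steroids. Hsd17b12, which acts in fatty acid elongation, was at 40.0 and 39.8 FPKM in the controls, 39.6 in the BPA male and 30.9 in the BPA female. Hsd17b10, a mitochondrial enzyme of isoleucine breakdown and tRNA processing, was at 27.6 and 31.8 FPKM in the control male and female and at 26.8 and 26.4 in the BPA male and female. The BPA female was the lowest library for both, and their adjusted p values were 0.447 and 0.407.

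Aromatase and the enzymes of glucocorticoid and sulfated steroids were low. Cyp19a1, the aromatase that makes estradiol, was at 0.12 FPKM in both controls and the BPA female and at 0.04 in the BPA male, or 3 and 1 fragments, and was not tested. Hsd11b1, which regenerates active glucocorticoid, was at 1.56 and 2.08 FPKM in the control male and female and at 1.14 and 1.02 in the BPA male and female, from 14 to 28 fragments, with an adjusted p of 0.359. Srd5a1, the 5-alpha reductase on the way to allopregnanolone, and Sts, the steroid sulfatase, had log2 differences of -0.30 (SE 0.133) and -0.01 (SE 0.266), and are named with their values known. Srd5a1 was at 6.71 and 6.81 FPKM in the control male and female and at 4.99 and 5.87 in the BPA male and female, near the median of each library.

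Of the turnover enzymes, Cyp46a1, the neuronal enzyme that hydroxylates cholesterol so that it can leave the brain, was the most abundant, with a log2 difference of -0.18 (SE 0.0996, adjusted p = 0.401). Cyp7b1, which hydroxylates oxysterols and neurosteroids, was at 2.40 and 3.18 FPKM in the control male and female and at 2.68 and 2.08 in the BPA male and female, so that the sexes pointed opposite ways. Cyp27a1, a mitochondrial sterol hydroxylase, was at 0.47 and 0.75 FPKM in the control male and female and at 0.05 and 0.27 in the BPA male and female. That was 9 and 14 fragments against 1 and 5, and the gene was not tested because its mean FPKM was below 1. The steroid genes not given by library, Fdx1, Sts and Cyp46a1, lay between 1.25 and 12.7 FPKM.

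**Figure D3:**
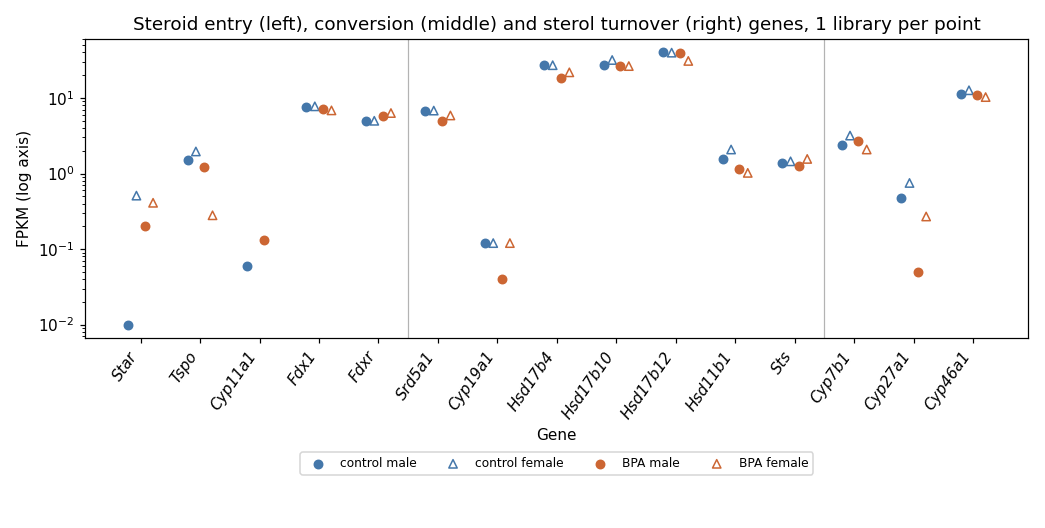
FPKM (log axis) of the 5 steroid entry and cleavage genes, 7 steroid conversion genes and 3 turnover genes, with 1 point per library, circles for males, triangles for females, blue for control and orange for BPA. Star, Cyp11a1, Cyp19a1 and Cyp27a1 lie below 1 FPKM in every library in which they are listed, and Cyp11a1 has no female points.

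Set side by side, the sterol genes lay farther below the controls than the steroid genes did, though no test of that difference was run. The median log2 difference was -0.35 over the 23 sterol genes and -0.19 over the 11 steroid genes tested, beside -0.04 over all genes. The steroid median was -0.12 without the control female library and -0.25 without the control male library. In males the medians were -0.35 and -0.09, and in females -0.41 and -0.29. Both BPA libraries lay below both controls for 21 of 23 sterol genes and 8 of 11 steroid genes, beside 31.9% of all genes. At an unadjusted p under 0.05, 17 of the 23 sterol genes were lower and 1 of the 11 steroid genes, beside 12% of all genes, so the steroid share did not exceed that of all genes. With libraries set to the same median, the medians were -0.29 and -0.12 and the counts without overlap 19 and 6 lower, beside 22.9% of all genes. When the fit was restricted to the 10632 rows with an NCBI Gene ID, leaving out the transcripts assembled by the sequencing provider, 13 genes passed, all lower, beside 3.79% of all genes. These were 12 sterol genes (Acat2, Hmgcs1, Idi1, Sqle, Cyp51, Msmo1, Hsd17b7, Ebp, Sc5d, Dhcr7, Insig1 and Stard4) and 1 steroid gene (Hsd17b4). Their log2 differences were those already given, and only the error estimate and the number of genes tested changed.

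Of the 34 genes, 29 were lower in both sexes and 1 was higher in both. Of all 13163 genes tested, 5276 (40.1%) were lower in both and 3414 higher in both. A log2 ratio of -0.5 or lower occurred in 5 of the 34 genes in males, beside 7.82% of all genes, and in 12 in females, beside 10.8%. An absolute log2 ratio of at least 0.5 also occurred in 5 genes in males and 12 in females, beside 11.4% and 14.4% of all genes. With libraries set to the same median these counts were 5 and 8, beside 11% and 13.2%. After quantile normalization they were again 5 and 8, beside 11% and 12.8%. The BPA female library had the lowest median FPKM. The female ratio was the lower in 23 of the 34 genes, 16 of 23 sterol genes and 7 of 11 steroid genes, beside 52.0% of all genes. Counting intervals lay wholly below 1 for 18 genes in males and 27 in females, 17 of them in both, beside 21.2%, 22.4% and 10.7% of all genes. In males 1 gene, Srebf2, had an interval wholly above 1, from 1.002 to 1.14, and in females none did. Between libraries of the same treatment the genes were closer. None of the 34 differed by 0.5 or more between the control libraries, beside 7.60% of all genes, and 1, Tspo, did between the BPA libraries, beside 8.33%. Over the 23 sterol genes the median female to male log2 difference was -0.01 in controls and -0.10 in BPA libraries, and the largest were 0.36 and 0.27.

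Other genes of these pathways had smaller median differences than the sterol list, and limma called none of those tested. The 25 other sterol genes tested covered uptake, export, transport and remaining synthesis enzymes. At an unadjusted p under 0.05, 6 were lower and none higher, beside 12% and 5.31% of all genes. Their median log2 difference was -0.11, and 4 were called, lower, in the fit on Gene ID rows, beside 3.79% of all genes. Of 9 fatty acid genes known as SREBP targets, 2 were lower and none higher, with a median of -0.11. Of these, Scd, a stearoyl-CoA desaturase, was at 8.42 and 8.22 FPKM in the controls and 4.83 and 4.23 in the BPA male and female, a log2 difference of -0.81 (SE 0.127, adjusted p = 0.0662, and 0.00975 in the fit on Gene ID rows), and is named after its values were seen. Of 10 other steroid genes tested, 1 was lower and 2 higher, beside the same 12% and 5.31% of all genes, with a median of 0.02. Of 3 steroid receptor genes tested none passed, with a median of -0.25.

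Markers of several cell types differed between the same libraries, and their part in these results was not tested. All 11 meningeal and fibroblast markers were lower in both BPA libraries, with 7 called and a median log2 difference of -1.47, and all were above 1 FPKM in every library. Of 10 astrocyte and radial glia markers, 6 were lower at an unadjusted p under 0.05, beside 12% of all genes, and none were called. Their median was -0.33 over both sexes, beside -0.35 for the sterol genes. By sex it was -0.16 in males and -0.45 in females, beside -0.35 and -0.41 for the sterol genes. Of the 10, 7 were lower in both sexes and 1 (Sox9) was higher in both. The other 2 (Hes5 and Aldoc) were higher in males and lower in females. The 10 summed to 930 and 944 FPKM in the control male and female and 830.0 and 694 in the BPA male and female. In the fit on Gene ID rows, which called 12 of the 23 sterol genes, 4 of these 10 (Slc1a3, Slc1a2, Gfap and Aqp4), 4 of the 8 vessel and 10 of the 11 meningeal and fibroblast markers were called, all lower. That fit also called 1 oligodendrocyte lineage, 2 neuron, 1 olfactory bulb and 1 blood marker lower, and 3 striatal markers (Drd2, Ppp1r1b and Penk) higher. Of all genes it called 3.79% lower and 0.696% higher. At an unadjusted p under 0.05, 5 of the 8 vessel markers tested were lower (median -0.45) and 2 of the 8 microglia markers (median -0.34). So were 3 of the 9 oligodendrocyte lineage markers (median -0.07) and 1 of the 5 blood markers (median -0.30), beside 12% of all genes. The microglia median was 0.07 in males and -0.62 in females. The sexes pointed opposite ways for 4 of the 8 microglia and 5 of the 9 oligodendrocyte lineage markers. Vessel markers summed to 129 and 148 FPKM in the control male and female and 108 and 91.8 in the BPA male and female, and microglia markers to 51.6, 60.7, 48.6 and 38.4 in the same order. The 8 neuron markers had a median of -0.01 and summed to 3484 and 3367 FPKM in the controls and 3738 and 3599 in the BPA male and female, with Slc17a7 called lower (-0.79, adjusted p = 0.0274). Of the 8 striatal markers 7 were higher in both BPA libraries (median 0.43), with Penk called. Of the 5 olfactory bulb markers 4 were listed and 2 tested, of which Cdhr1 was called lower (-2.04) and Reln overlapped (0.07, adjusted p = 0.815). Of the pair not tested, Tbx21 was lower and Doc2g higher in both BPA libraries. None of the 6 choroid plexus markers reached a mean FPKM of 1.

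**Figure D4:**
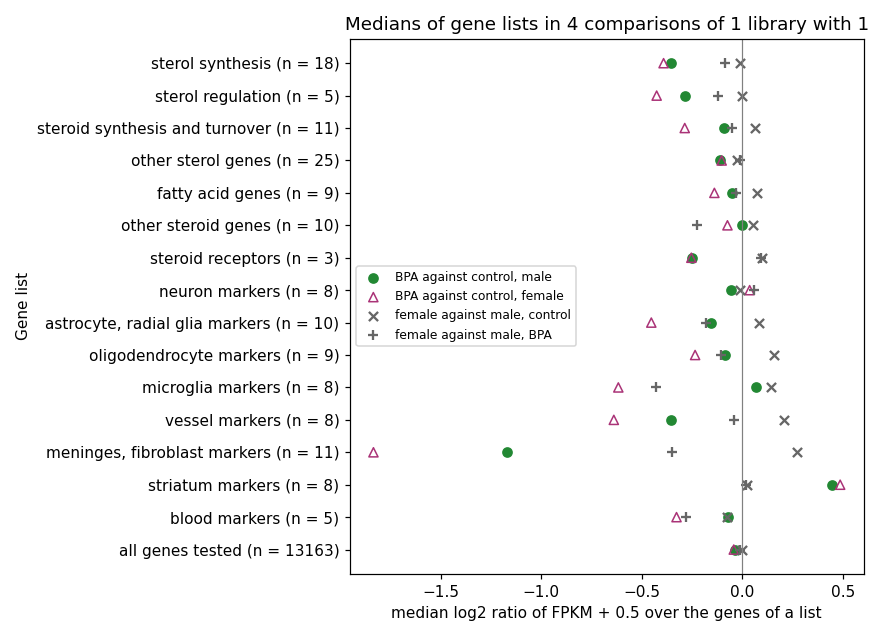
Median log2 ratio of FPKM + 0.5 over the genes of each list, in 4 comparisons of 1 library with 1, namely BPA against control in males (green circles) and females (open triangles) and female against male in controls (crosses) and in BPA libraries (plus signs). The sterol synthesis medians for BPA against control, -0.35 and -0.39, lie left of those between sexes, while the meningeal and fibroblast markers lie farthest left.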

How the data were processed

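RNA-seq of the frontal cortex was analyzed from 4 libraries, 1 for each sex and prenatal treatment. The deposited values are FPKM, which the authors calculated with RSEM after mapping clean reads to rn6 (Rnor_6.0) with Bowtie 2, and the submitters' processing notes also name HISAT. Versions are not given in the sources used here. They are given to 2 decimals, with 0.01 as the lowest entry, used in place of 0.

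Since the files hold FPKM and no counts, log2(FPKM + 0.5) was tested with limma 3.58.1 (R 4.3.3) on the 13163 genes with a mean FPKM of at least 1, of 16182 listed in every library. A trend in the prior variance was used and treatment was the only term, so the sexes served as replicates, with 2 residual degrees of freedom and Benjamini-Hochberg adjustment at 0.05. Within a sex, 1 library against 1 was described by ratios with 95% Clopper-Pearson counting intervals.

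Library depth was estimated by finding the total at which scarce transcripts came out at whole fragments after multiplying FPKM by effective length. They did so within 0.1 of a fragment for 80.4% to 81.2% of the 244 to 264 scarce transcripts used. On simulated data of 16782 transcripts the largest error of the recovered depth was 0.032%. The simulated counts were whole numbers with a fixed length offset, as the method assumes. That error therefore does not measure the accuracy on the deposited values.

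The genes and lists were chosen with earlier results of these data known. A gene was given library by library if called, or if its absolute log2 ratio was at least 0.5 in a sex. The same was done if its groups did not overlap at an unadjusted p under 0.05, or if it was among the 3 highest or 3 lowest of its list. The others were given by range, except Fdxr, Srd5a1 and Srebf2, which were given by library with their values known. Alternatives covered the pseudocount, filter, scaling, rows used, prior, a sex block and each library left out. Tables and figures used Python 3.11.15, pandas 2.3.3, numpy 2.4.6, scipy 1.17.1 and matplotlib 3.10.9.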

Additional observations from a re-analysis of the deposited data

How the results depend on the processing

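The direction of the sterol genes was steadier than the number called. The fits covered 9095 genes with a mean FPKM of at least 5, 10632 on Gene ID rows, 16182 with no filter and 13163 otherwise. Of the 13163, 74 were called as reported, 97 with log2(FPKM + 1) and 86 with sex as a block. At an unadjusted p under 0.05, 17.3% of all genes passed as reported. Against 1 of the 34 genes called as reported, limma called 3 with log2(FPKM + 1), 8 with a mean FPKM of at least 5, 2 after quantile normalization, 13 on rows with an NCBI Gene ID, 5 with sex as a block, and 11 on Gene ID rows with libraries set to the same median, an alternative chosen after seeing the data. It called 0 with no filter (18 at an unadjusted p under 0.05), 0 with no trend in the prior variance (16 unadjusted) and 0 without any 1 library (15 to 21 unadjusted). Over all genes, against 74 called, it called 24 with no pseudocount, 164 with a mean FPKM of at least 5, 26 after quantile normalization, 477 on Gene ID rows, 450 on these with the same median, 0 with no filter (2628 unadjusted), 0 with no trend (2055 unadjusted) and 0 to 6 without 1 library (1421 to 1899 unadjusted).

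With a mean FPKM of at least 5, which leaves fewer genes, 3 genes in males and 7 in females passed an absolute log2 ratio of 0.5. The median of the sterol synthesis genes, -0.35, was -0.29 with libraries set to the same median and ran from -0.383 to -0.325 without 1 library, and that of the 11 steroid genes, -0.19, from -0.253 to -0.12. The sign turned for Scap (0.0039) and Sts (0.0555) with the same median and for Sts after quantile normalization (0.18). Without 1 library the log2 difference ran from -0.217 to 0.0657 for Lss, turning without control replicate 2, the female, from -0.0705 to 0.112 for Srebf2, turning without BPA replicate 1, the male, and from -0.126 to 0.109 for Sts, turning without either of those (0.02 and 0.11). None of these 4 genes was called in any setting. Of 435 single-gene values under alternatives, 396 kept direction and side of the threshold, 26 passed it anew, 6 lost it (Insig1) and 7 turned in sign, and the cause was not tested. The labels give no replicate numbers, so the paired fit was the one with sex as a block, which added 4 genes to the 1 called and lost none. The 2 libraries per treatment limit every test, and Star, Cyp11a1 and Cyp19a1 had too few fragments for a difference between libraries to be detected.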
